A study of Mus musculus with 17 samples.

Results

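The endoplasmic reticulum unfolded protein response was followed through 34 genes, listed by name for their known roles, out of 21982 genes in the count table. They are the stress sensors and their transcription factors (5 genes), Hsp70 and Hsp90 chaperones with their cofactors (11), lectin chaperones (2), enzymes of disulfide bond formation (6), genes of ER-associated degradation (8) and translocon subunits (2). All 34 were in the table, and 33 of them were among the 12486 genes with enough counts to test. The remaining member, Derl3, had 14 counts in all, spread over 9 of 17 libraries. Each library is mRNA from the brown adipose tissue of 1 C57BL/6 mouse, so less RNA per cell and fewer cells of a type cannot be told apart in these values.

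The mice were wild type (Noc+/+) or homozygous knockouts (Noc-/-) of Nocturnin (gene Noct), a circadian phosphatase once taken for a deadenylase. They were littermates, each caged alone with food removed for 4 h, either at room temperature (22 °C) or in the cold (6 °C). Wild types numbered 4 at 22 °C, of which 1 was male, and 5 at 6 °C, again with 1 male. Knockouts numbered 4 at each temperature, of which 3 were male. Labelled ages carry no unit and began at 11.14 in every group, reaching 17 in the knockouts at 6 °C, 23 in the wild types at 6 °C and 23.57 in the groups at 22 °C. The labels name no driver that would limit the knockout to brown fat. The comparisons ask whether 4 h of cold changed these genes in each genotype, whether the genotypes differed at each temperature, and whether the cold responses differed.

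When unfolded proteins build up in the ER, the chaperone BiP (Hspa5) leaves the luminal sides of IRE1 (Ern1), PERK (Eif2ak3) and ATF6. IRE1 then splices Xbp1 mRNA, PERK phosphorylates eIF2alpha and so favours translation of Atf4, and ATF6 is cut in the Golgi to release a transcription factor. The 3 branches raise chaperones, disulfide isomerases and the machinery that returns misfolded proteins to the cytosol for degradation. In brown fat, cold brings noradrenaline, lipolysis, uncoupled respiration through Ucp1 and new synthesis of membrane and secreted proteins. Gene counts do not separate spliced from unspliced Xbp1 and say nothing of cleavage or phosphorylation.

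The libraries held 18410748 to 47598200 counts, and mitochondrially encoded genes took 43.4 to 57.3% of them, with the highest shares in knockout replicate 4 at 22 °C and knockout replicate 3 at 6 °C. Levels below are counts scaled to library size after TMM (CPM), and gene-by-gene differences are log2 fold changes ± SE from edgeR. Noct stood at 91.5 to 457 CPM in the wild types and at 3.37 to 34.2 CPM in the knockouts, with no overlap. Brown adipocyte markers summed to 10793 to 14448 CPM in the mice at 22 °C and to 14671 to 19329 CPM in those at 6 °C. Of these 9 genes, 5 rose and 1 fell in wild types, and 4 rose and 0 fell in knockouts. The shares of all tested genes were 14.3% up and 13.3% down in wild types and 11.6% up and 10% down in knockouts. When scaled to total counts, Dio2, Elovl3, Ppargc1a and Ucp1 rose in both genotypes and Adipoq fell in wild types. The sum is therefore not a measure of how many brown adipocytes a sample held. Plasma cell and B cell markers, whose cells are rich in these ER genes, summed to 0.468 to 2.31 CPM, and 5 of these 7 were at 0 in at least 1 library. The one with enough counts to test, Jchain, fell in wild types from 0.816 ± 0.431 CPM (SD, n = 4) to 0.328 ± 0.0821 CPM (SD, n = 5, edgeR adjusted p = 0.0394). In knockouts Jchain did not fall, with a log2 fold change of 0.15 (edgeR adjusted p = 0.862). With TMM, the macrophage gene Cd163 and the endothelial genes Pecam1 and Esam rose and the endothelial Tek fell in both genotypes. Scaled to total counts, Cd163 rose and Tek fell in both genotypes, Pecam1 rose in wild types only, and Esam was not called. No fibroblast or muscle marker was called with either scaling. Skeletal muscle markers ran from 0.580 to 962 CPM and spread widely within every group. The part of these cell types in the results was not tested.

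ATF6 acts through the ER stress response element, ERSE, which was searched as CCAAT, any 9 bases and CCACG. The promoters below are shown because the members that moved in the cold can be set beside the letters that define the response. RefSeq promoters (GRCm38.p6, 250 bases before to 50 after the gene's start) were matched for 28 of the 34 members, 2 of them by a later symbol (Ero1l as Ero1a, Ero1lb as Ero1b). There was no entry for Atf6, Hspa13, Hyou1, Manf, Derl1 and Sec61a1. On either strand, ERSE was found in 10 of the 28 (35.7%) and in 39 of 32851 promoters in the whole table (0.119%). Counted by gene, the whole table held it in 37 of 27025 genes, which include the members. Shares of members here and below are per gene, and shares of all are per promoter. The members were listed for known roles in this response, and the shares were not compared by a test. The windows that follow read on the strand with CCAAT first, and the capitals mark the CCAAT and CCACG ends of the element.
Hspa5, chr2:34772020-34772048, plus strand: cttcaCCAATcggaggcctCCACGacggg
Hsp90b1, chr10:86705633-86705661, minus strand: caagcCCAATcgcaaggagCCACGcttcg
Hsp90b1, chr10:86705528-86705556, plus strand: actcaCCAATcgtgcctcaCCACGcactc
Canx, chr11:50325795-50325823, minus strand: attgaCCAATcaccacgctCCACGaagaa
Calr, chr8:84847070-84847098, plus strand: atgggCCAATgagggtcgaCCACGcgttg
Pdia6, chr12:17266486-17266514, plus strand: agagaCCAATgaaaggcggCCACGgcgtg
Dnajc3, chr14:118937822-118937850, plus strand: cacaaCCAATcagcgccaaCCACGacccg
Syvn1, chr19:6046527-6046555, plus strand: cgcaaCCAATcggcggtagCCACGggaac

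Creld2, Ero1lb and Derl3 also held the element, and Hsp90b1 alone among the members held 2 copies. Counted from the RefSeq start, the nearest copy was that of Syvn1, 44 to 26 bases before it. The farthest was the outer copy of Hsp90b1, 212 to 194 bases before its RefSeq start. The gene spans printed further below are from GENCODE, whose starts can differ from these, so the distances do not apply to those spans. ERSE-II, searched as ATTGG, any 1 base and CCACG, was found in Dnajb11 and Herpud1 (7.14% of member promoters, 0.0365% of all promoters). The UPRE core TGACGTGG, linked to XBP1, was in none of the 28 and in 0.676% of all promoters, and no match says only that these letters are absent from this window. The short end pieces are common: CCAAT was in 78.6% of member promoters against 37.4% of all, and CCACG in 78.6% against 32.8%. The ERSE letters hold both.

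The 250 bases before the RefSeq start are given for Canx, which rose in the cold and holds the element, and for Xbp1, Pdia4 and Edem1, which fell and do not. These examples do not stand for all members. Dnajb9 and Ero1l rose in wild types without the element. Dnajc3, Creld2, Calr, Pdia6, Ero1lb and Syvn1 hold it and did not pass there with TMM on all 17 libraries. Capitals mark CCAAT or CCACG on either strand, so that CGTGG and ATTGG are the same pieces read from the other strand.
Canx, chr11:50325674-50325923, minus strand: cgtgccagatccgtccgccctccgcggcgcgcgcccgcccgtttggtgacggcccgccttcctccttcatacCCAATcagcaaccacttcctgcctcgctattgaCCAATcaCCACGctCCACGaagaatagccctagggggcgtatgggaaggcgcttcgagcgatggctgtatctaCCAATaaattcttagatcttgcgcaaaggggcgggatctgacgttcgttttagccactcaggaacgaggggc
Xbp1, chr11:5520391-5520640, plus strand: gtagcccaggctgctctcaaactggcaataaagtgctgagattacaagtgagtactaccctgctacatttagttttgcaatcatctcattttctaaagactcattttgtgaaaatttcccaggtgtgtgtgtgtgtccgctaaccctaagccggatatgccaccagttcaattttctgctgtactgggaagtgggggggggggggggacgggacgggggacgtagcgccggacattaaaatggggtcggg
Pdia4, chr6:47813513-47813762, minus strand: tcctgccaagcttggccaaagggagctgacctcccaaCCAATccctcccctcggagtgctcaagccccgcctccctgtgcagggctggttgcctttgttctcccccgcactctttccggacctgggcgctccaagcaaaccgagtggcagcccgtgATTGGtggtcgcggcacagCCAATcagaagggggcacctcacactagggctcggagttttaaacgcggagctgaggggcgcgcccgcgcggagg
Edem1, chr6:108828391-108828640, plus strand: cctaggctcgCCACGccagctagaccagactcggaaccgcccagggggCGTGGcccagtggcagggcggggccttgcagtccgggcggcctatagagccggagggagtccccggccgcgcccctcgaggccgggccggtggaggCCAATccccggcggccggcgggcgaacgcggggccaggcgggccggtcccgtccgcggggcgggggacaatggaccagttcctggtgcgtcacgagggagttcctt
The Canx stretch holds 3 CCAAT and 2 CCACG pieces, that of Pdia4 holds 3 CCAAT and 0 CCACG, that of Edem1 holds 1 CCAAT and 2 CCACG, and that of Xbp1 holds 0 of either. A match is a description of letters and not of a bound factor.

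Cold moved a minority of the response in wild types, and in both directions. The sensor gene Atf6, the chaperones Hspa5, Hsp90b1, Hyou1, Dnajb9, Manf and Canx and the oxidase gene Ero1l rose, by 1.26-fold (Hyou1) to 2.13-fold (Dnajb9). Xbp1, Pdia4 and Edem1 fell, by 1.46-fold (Edem1) to 1.70-fold (Xbp1). By edgeR's quasi-likelihood test at an adjusted p of 0.05, 8 of the 33 tested members rose (24.2%) and 3 fell (9.09%), against 14.3% and 13.3% of all tested genes. The members' median log2 fold change was 0.01, and that of all tested genes was -0.03. Values did not overlap between the temperatures for 9 members that were higher in the cold and 5 that were lower, against 13% and 12.8% of all tested genes.

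In the knockouts, 5 of 33 members rose (15.2%), namely Atf6, Hspa5, Hyou1, Dnajb9 and Canx, against 11.6% of all tested genes. Xbp1, Pdia4 and Edem1 fell (9.09%), against 10% of all tested genes. The median of the members was 0.09, and the median of all tested genes -0.02. Values did not overlap for Atf6 and Dnajb9, which were higher in the cold, nor for Creld2, Pdia4, Sel1l and Edem1, which were lower, where 10.8% and 9.43% of all tested genes showed no overlap. Knockout replicate 3 at 6 °C was the highest of its group in 15 of the 33 members and the lowest in 11, and knockout replicate 4 at 22 °C was the highest in 16 and the lowest in 7. Knockout replicate 4 at 6 °C was the highest in 13 and the lowest in 6. Replicate 3 at 6 °C and replicate 4 at 22 °C are the libraries with the largest mitochondrial shares, and their part was not tested. On the 8 knockouts alone or on the male knockouts alone, Hspa5, Hyou1, Canx and Xbp1 did not pass (adjusted p from 0.0566 to 0.261).

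The counts of rises and falls depend on the scaling. TMM normalisation factors were 1.09 to 1.15 in the wild types at 22 °C and 0.888 to 1.06 in the wild types at 6 °C. Scaling to the total count instead moved the median of all tested genes from -0.03 to -0.23 in wild types and from -0.02 to -0.09 in knockouts. With that scaling, which was added after the data were seen, 4 members rose and 8 fell in wild types, where 6.89% of all tested genes rose and 23% fell. Of all genes called there, 23.0% were higher in the cold, and with TMM 51.8% were. Atf6, Hspa5, Dnajb9 and Canx rose, and Xbp1, Pdia4 and Edem1 fell, under both scalings and in both genotypes, and the other calls in wild types changed with the scaling. In knockouts 4 rose and 3 fell with total counts, where 8.32% of all tested genes rose and 10.6% fell, and 43.9% of all called genes were higher in the cold against 53.6% with TMM.

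**Figure D1:**
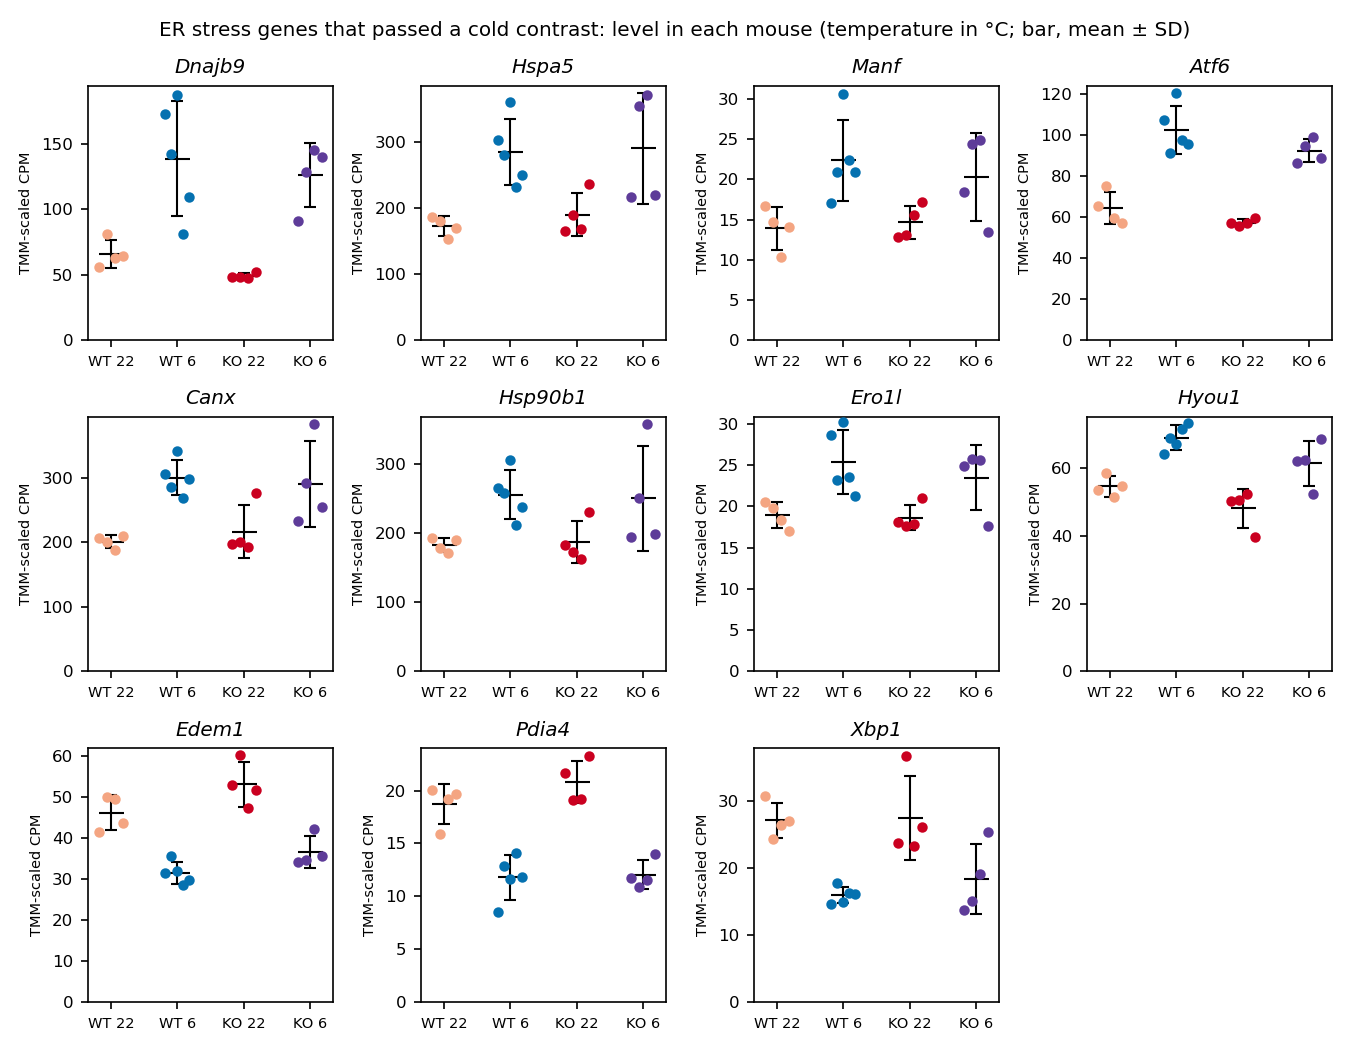
Level of the 11 members that passed a cold contrast, as TMM-scaled CPM on a linear axis that starts at 0, by genotype (WT, KO) and temperature in °C, with 1 point per mouse and bars for the group mean ± SD. Dnajb9 lies between 81.1 and 187 CPM in the wild types at 6 °C and between 55.9 and 80.9 CPM in those at 22 °C, and Pdia4 is lower in every mouse at 6 °C than in any mouse at 22 °C of its genotype.

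Among the stress sensors and their factors, 1 of 5 rose and 1 fell in each genotype. The counts by role here and below stand beside the shares of all tested genes. With TMM, 14.3% of those rose and 13.3% fell in wild types, and 11.6% rose and 10% fell in knockouts. Atf6 encodes the membrane-bound factor that is cut to switch on ERSE genes. In wild types Atf6 stood at 65.5, 74.8, 59.5 and 57.3 CPM at 22 °C and at 107, 91.2, 120, 97.6 and 95.3 CPM at 6 °C. Knockout Atf6 values were 57.0, 55.6, 57.0 and 59.5 CPM at 22 °C and 86.3, 94.5, 99 and 88.9 CPM at 6 °C. Every mouse in the cold was above every mouse at 22 °C, in both genotypes. Atf6 rose by 0.68 ± 0.10 on the log2 scale in wild types (edgeR adjusted p = 0.000206) and by 0.69 ± 0.11 in knockouts (adjusted p = 0.000328). The gene lies at chr1:170704674-170867771 (GRCm38, minus strand, GENCODE), and no exon of another gene overlaps its exons.

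Xbp1 (chr11:5520659-5525893, plus strand) encodes the factor whose mRNA IRE1 splices, and it is itself a target of the response. Wild-type Xbp1 measured 30.7, 24.4, 26.4 and 27.1 CPM at 22 °C and 14.7, 17.8, 15.0, 16.3 and 16.1 CPM at 6 °C. Xbp1 in knockouts measured 23.7, 36.8, 23.3 and 26.2 CPM at 22 °C and 13.8, 15.1, 19.1 and 25.5 CPM at 6 °C. The wild-type groups stood apart, while knockout replicate 4 in the cold lay within the range at 22 °C. Xbp1 fell by 0.76 ± 0.16 on the log2 scale in wild types (edgeR adjusted p = 0.00191). In knockouts Xbp1 fell by 0.59 ± 0.17 (adjusted p = 0.0177), and without knockout replicate 2 at 22 °C the log2 fold change was -0.42 with an adjusted p of 0.0869. The loss of either replicate 1 or replicate 2 of the knockouts at 6 °C also ended that call (adjusted p = 0.0812 and 0.0702).

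Ern1, Eif2ak3 and Atf6b, the genes of IRE1, PERK and the paralogue of ATF6, did not pass edgeR's test on all 17 libraries. For Ern1, wild types had 9.25, 9.67, 11.9 and 12.1 CPM at 22 °C and 12.2, 8.52, 9.59, 10.5 and 9.31 CPM at 6 °C. Ern1 in knockouts stood at 11.4, 8.69, 8.29 and 5.91 CPM at 22 °C and at 11.2, 10.9, 11.2 and 11.2 CPM at 6 °C. The 4 knockouts in the cold were nearly alike, and those at 22 °C ranged almost 2-fold, with the lowest in replicate 4. The log2 fold change of Ern1 was -0.12 ± 0.14 in wild types and 0.39 ± 0.15 in knockouts (edgeR adjusted p = 0.555 and 0.0629). The knockout rise of Ern1 passed by DESeq2 (0.40, adjusted p = 0.0379) and in edgeR without knockout replicate 1 at 6 °C (0.49, 0.0392), knockout replicate 1 at 22 °C (0.52, 0.0287) or wild-type replicate 1 at 22 °C (0.41, 0.0427).

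Eif2ak3 had wild-type values of 10.5, 13, 11.8 and 12.8 CPM at 22 °C and of 14.4, 13.9, 15.8, 12.7 and 15.9 CPM at 6 °C. Its knockout values were 14.4, 11.7, 14 and 13.1 CPM at 22 °C and 16.2, 15.0, 19.0 and 11 CPM at 6 °C. The groups overlapped in both genotypes, and the log2 fold changes were 0.27 ± 0.14 and 0.20 ± 0.14 (edgeR adjusted p = 0.153 and 0.351). Atf6b in wild types gave 5.37, 7.85, 7.53 and 6.73 CPM at 22 °C and 6.97, 5.79, 4.50, 7.51 and 8.21 CPM at 6 °C. Knockout Atf6b gave 6.20, 6.99, 7.33 and 3.96 CPM at 22 °C and 6.85, 3.94, 5.48 and 5.88 CPM at 6 °C, with full overlap and log2 fold changes of -0.07 ± 0.20 and -0.15 ± 0.22 (adjusted p = 0.836 and 0.692). Per gene length, in wild types at 22 °C, Atf6 stood at 7.78 ± 0.875 RPKM and Atf6b at 2.78 ± 0.394 RPKM (SD, n = 4), without overlap.

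The chaperones of the Hsp70 and Hsp90 families and their cofactors held 5 of the 8 rises in wild types, out of 11 members (45.5%), and 3 of 11 in knockouts (27.3%), and none fell in either genotype with TMM. Their median log2 fold change was 0.29 in wild types and 0.35 in knockouts. With total-count scaling, Hspa5 and Dnajb9 alone rose in each genotype, Dnajc10 fell in wild types, and the medians were 0.09 and 0.27. Hspa5 encodes BiP, the ER Hsp70 that holds the sensors inactive. Hspa5 in wild types measured 187, 181, 153 and 170 CPM at 22 °C and 302, 280, 359, 232 and 249 CPM at 6 °C. Knockout Hspa5 measured 165, 190, 168 and 236 CPM at 22 °C and 217, 353, 370 and 219 CPM at 6 °C. No wild types overlapped between temperatures, whereas knockout replicates 1 and 4 in the cold lay below knockout replicate 4 at 22 °C. Hspa5 rose by 0.73 ± 0.17 in wild types, 1.66-fold (edgeR adjusted p = 0.00393), and by 0.60 ± 0.17 in knockouts, 1.52-fold (adjusted p = 0.0197). The knockout call was lost without replicate 2 or 3 at 6 °C (adjusted p = 0.0548 and 0.0679) or replicate 3 at 22 °C (0.0533). The gene lies at chr2:34771970-34777547 on the plus strand by GENCODE. That start lies before the RefSeq start used for the promoters, so the ERSE window printed above falls inside this span.

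Dnajb9, an ER J-protein known to bring BiP back to the luminal side of IRE1 and a target of XBP1, had the largest fold change of all members in both genotypes. Wild-type Dnajb9 values were 55.9, 80.9, 63.3 and 64.5 CPM at 22 °C and 173, 142, 187, 81.1 and 110 CPM at 6 °C. Knockouts gave Dnajb9 values of 48.3, 48.0, 47.6 and 52.4 CPM at 22 °C and of 91.0, 129, 145 and 140 CPM at 6 °C. The temperatures did not overlap in either genotype, although wild-type replicate 4 in the cold exceeded wild-type replicate 2 at 22 °C by very little. Dnajb9 rose by 1.09 ± 0.19, 2.13-fold, in wild types and by 1.35 ± 0.20, 2.54-fold, in knockouts (edgeR adjusted p = 0.000603 and 0.000226). It lies at chr12:44205559-44210326 on the minus strand.

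Hsp90b1 (chr10:86690209-86705509, minus strand) encodes GRP94, the ER Hsp90. Wild types gave Hsp90b1 values of 193, 178, 171 and 189 CPM at 22 °C and of 265, 258, 306, 211 and 237 CPM at 6 °C. Knockouts gave 182, 173, 162 and 231 CPM at 22 °C and 194, 250, 358 and 199 CPM at 6 °C. The wild-type groups were apart and the knockout groups overlapped. Hsp90b1 rose by 0.49 ± 0.16 in wild types (edgeR adjusted p = 0.0322), and its log2 fold change in knockouts was 0.41 ± 0.17 (adjusted p = 0.0922). The wild-type call was lost without replicate 2 or 3 at 22 °C (0.0834 and 0.0697), without replicate 1 or 3 at 6 °C (0.0622 and 0.0763) and with total-count scaling (0.28, adjusted p = 0.0973). In knockouts the adjusted p was 0.0451 without replicate 1 at 6 °C, 0.0312 without replicate 4 at 6 °C and 0.0479 without replicate 4 at 22 °C. Of its exon bases, 10.3% lie over an exon of a gene on the other strand, and with the strand setting of the counting not given in the sources used here, reads of the overlapping genes cannot be told apart.

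Manf (chr9:106838312-106891979, minus strand) encodes an ER protein that binds BiP and can be secreted. In wild types Manf was at 16.7, 14.7, 10.3 and 14 CPM at 22 °C and at 17.1, 20.9, 30.6, 22.4 and 20.9 CPM at 6 °C. In knockouts Manf was at 12.9, 13.1, 15.6 and 17.2 CPM at 22 °C and at 18.5, 24.4, 24.9 and 13.5 CPM at 6 °C. Wild-type values did not overlap, and knockout replicate 4 in the cold lay among the values at 22 °C. Manf rose by 0.69 ± 0.19 in wild types (edgeR adjusted p = 0.0135), and its knockout log2 fold change was 0.47 ± 0.20 (adjusted p = 0.112, and 0.0182 without that replicate). With total-count scaling its wild-type log2 fold change was 0.47 (adjusted p = 0.0504). Exons of other genes on the opposite strand cover 8.85% of its exon bases.

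Hyou1 (chr9:44379490-44392369, plus strand) encodes an ER Hsp110-like exchange factor of BiP. Wild-type Hyou1 stood at 53.5, 58.6, 51.4 and 54.8 CPM at 22 °C and at 64.2, 68.7, 67.1, 71.5 and 73.4 CPM at 6 °C. Knockout Hyou1 stood at 50.1, 50.5, 52.4 and 39.6 CPM at 22 °C and at 62.2, 62.4, 52.3 and 68.5 CPM at 6 °C. Wild types were apart, and knockout replicate 3 in the cold fell just inside the range at 22 °C. Hyou1 rose by 0.34 ± 0.10 in wild types and by 0.35 ± 0.11 in knockouts (edgeR adjusted p = 0.0202 and 0.0267). With total-count scaling neither held, at 0.14 (adjusted p = 0.483) and 0.27 (adjusted p = 0.230). The wild-type call was also lost without replicate 1 or 3 at 22 °C (0.0530 and 0.0644), and the knockout call without replicate 1 or 4 at 6 °C (0.0565 and 0.0583) or replicate 4 at 22 °C (0.0777).

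The other 6 genes of this group did not pass the test in either genotype. They are Hspa13, Dnajb11, Dnajc3, Dnajc10, Sdf2l1 and Creld2. Hspa13, an Hsp70-like ATPase, came nearest in wild types, with 16.7 to 18.9 CPM at 22 °C and 19.4 to 23.4 CPM at 6 °C, no overlap, and a log2 fold change of 0.29 ± 0.13 (edgeR adjusted p = 0.0915). Hspa13 passed in wild types without knockout replicate 3 or 4 at 6 °C (0.0489 and 0.0326) and on the wild types alone (0.0265), and in knockouts without replicate 4 at 6 °C (0.0342). The J-proteins Dnajb11, Dnajc3 and Dnajc10 had wild-type log2 fold changes of 0.12 ± 0.11, 0.18 ± 0.14 and -0.14 ± 0.12, and Dnajc10 was at -0.34 with total-count scaling (adjusted p = 0.0214). Creld2 stood at 3.36 to 4.43 CPM in knockouts at 22 °C and at 2.97 to 3.23 CPM in those at 6 °C, without overlap, and its log2 fold change of -0.34 ± 0.17 had an adjusted p of 0.162. Sdf2l1 is a known ER stress target that works with J-proteins, and it had 274 counts over the 17 libraries. Its knockout log2 fold change was 0.70 ± 0.48 (adjusted p = 0.336).

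**Figure D2:**
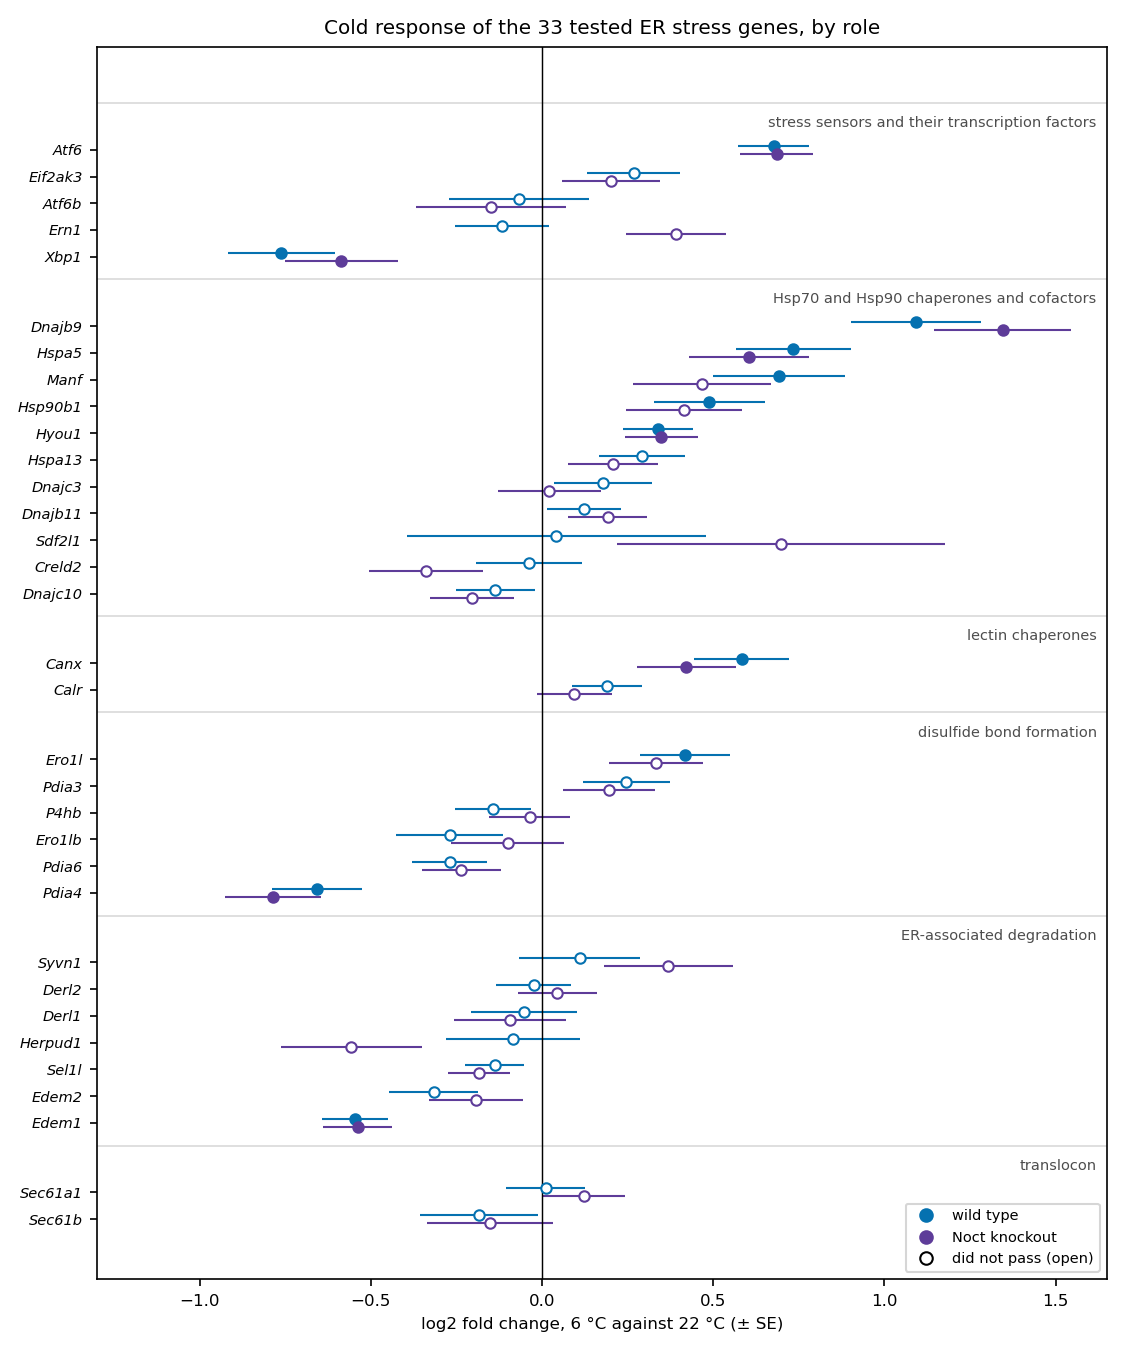
Log2 fold change at 6 °C against 22 °C (horizontal axis, ± SE of the edgeR coefficient) for the 33 tested members, grouped by role, in wild types and in knockouts. Filled points passed an adjusted p of 0.05 and open points did not. Filled points to the right are mostly chaperones, led by Dnajb9 at 1.09 and 1.35, and those to the left are Xbp1, Pdia4 and Edem1.

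Of the lectin chaperones, which hold glycoproteins while they fold, the membrane-bound Canx (chr11:50293961-50325673, minus strand) rose in both genotypes and the soluble Calr did not pass. Wild-type Canx was at 207, 201, 188 and 210 CPM at 22 °C and at 306, 287, 341, 268 and 298 CPM at 6 °C. Canx in knockouts was at 197, 200, 192 and 277 CPM at 22 °C and at 233, 292, 384 and 254 CPM at 6 °C. Wild types lay apart by a wide gap, while knockout replicate 4 at 22 °C was as high as mice in the cold. Canx rose by 0.58 ± 0.14 in wild types (1.5-fold, edgeR adjusted p = 0.00510) and by 0.42 ± 0.14 in knockouts (1.34-fold, adjusted p = 0.0457). The knockout call sits close to the threshold and was lost without any 1 of 5 knockout libraries or of 2 wild-type libraries. These are replicates 2 and 3 at 6 °C (0.0618 and 0.166), replicates 1, 2 and 3 at 22 °C (0.0843, 0.117 and 0.106) and wild-type replicates 1 and 2 at 6 °C (0.0538 and 0.0515). Calr spanned 134 to 185 CPM in wild types at 22 °C and 171 to 201 CPM at 6 °C, a log2 fold change of 0.19 ± 0.10 (adjusted p = 0.182), and in knockouts the log2 fold change was 0.09 ± 0.11. Both genes have the ERSE letters printed above.

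In disulfide bond formation, 1 of 6 members rose and 1 fell in wild types, and 0 rose and 1 fell in knockouts. The wild-type shares, 16.7% each, were near those of all tested genes (14.3% up and 13.3% down). Pdia4 encodes ERp72, a disulfide isomerase with several thioredoxin-like domains that partners BiP. Pdia4 measured 20.0, 15.9, 19.2 and 19.6 CPM in wild types at 22 °C and 8.50, 12.9, 11.6, 14.1 and 11.9 CPM at 6 °C. Knockout Pdia4 measured 21.7, 19.1, 19.2 and 23.3 CPM at 22 °C and 11.8, 10.9, 11.6 and 14 CPM at 6 °C. No mouse in the cold reached the lowest at 22 °C in either genotype. Pdia4 fell by 0.66 ± 0.13 in wild types, 1.58-fold lower, and by 0.79 ± 0.14 in knockouts, 1.72-fold lower (edgeR adjusted p = 0.00162 and 0.000893). It lies at chr6:47796141-47813430 on the minus strand.

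Ero1l (chr14:45283087-45318771, minus strand) encodes the oxidase that passes electrons from the isomerases to oxygen. Wild-type Ero1l values were 20.5, 19.8, 18.4 and 17.0 CPM at 22 °C and 28.7, 23.2, 30.2, 23.5 and 21.2 CPM at 6 °C. In knockouts they were 18, 17.7, 17.8 and 20.9 CPM at 22 °C and 24.9, 25.7, 25.6 and 17.6 CPM at 6 °C. Wild types did not overlap, and in knockouts replicate 4 in the cold was below all 4 mice at 22 °C. Ero1l rose by 0.42 ± 0.13 in wild types (edgeR adjusted p = 0.0242), and its knockout log2 fold change was 0.33 ± 0.14 (adjusted p = 0.0961, and 0.0131 without that replicate). With total-count scaling the wild-type log2 fold change was 0.20 (adjusted p = 0.151). The wild-type call was lost without replicate 3 or 4 at 22 °C (0.0571 and 0.0744) or replicate 1 or 3 at 6 °C (0.0602 and 0.0632).

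The other 4 enzymes of the group did not pass with TMM on all 17 libraries. On fewer libraries Pdia6 fell in wild types by edgeR. It passed on the wild types alone (-0.25, adjusted p = 0.0365), on their females alone (-0.30, 0.0492) and without knockout replicate 3 at 6 °C (-0.27, 0.0267). Pdia6, an isomerase known to bind IRE1, stood at 45.4 to 52.6 CPM in wild types at 22 °C and at 37.3 to 43.5 CPM at 6 °C, without overlap, with a log2 fold change of -0.27 ± 0.11 (edgeR adjusted p = 0.0749, and 0.0186 with total-count scaling). Pdia3, the isomerase of the calnexin cycle, had log2 fold changes of 0.25 ± 0.13 in wild types and 0.20 ± 0.13 in knockouts. P4hb, the classical isomerase, had -0.14 ± 0.11 and -0.04 ± 0.12, and Ero1lb, the other oxidase, -0.27 ± 0.16 and -0.10 ± 0.17. With total-count scaling Ero1lb was at -0.47 in wild types (adjusted p = 0.0447), and Pdia6 at -0.47.

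Of the 7 tested genes of ER-associated degradation, none rose and Edem1 fell, in each genotype. With total-count scaling Edem1, Edem2 and Sel1l fell in wild types. Edem1 encodes a lectin-like protein that marks glycoproteins for removal. Wild-type Edem1 was at 41.7, 50.1, 49.5 and 43.7 CPM at 22 °C and at 31.6, 35.7, 31.9, 28.6 and 29.8 CPM at 6 °C. Knockout Edem1 was at 53.0, 60.4, 47.4 and 51.8 CPM at 22 °C and at 34.1, 34.6, 42.3 and 35.6 CPM at 6 °C. The temperatures did not overlap in either genotype. Edem1 fell by 0.55 ± 0.10 in wild types and by 0.54 ± 0.10 in knockouts (edgeR adjusted p = 0.000622 and 0.00132). It lies at chr6:108828641-108859356 on the plus strand.

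With TMM on all 17 libraries and sex as the only covariate, the remaining tested genes of this group did not pass in either genotype. Their log2 fold changes in that fit were within 0.56 of 0, the largest being that of Herpud1 in knockouts. Edem2, the paralogue of Edem1, stood at 9.06 to 9.76 CPM in wild types at 22 °C and at 6.21 to 8.61 CPM at 6 °C without overlap, with a log2 fold change of -0.32 ± 0.13 (edgeR adjusted p = 0.0796, and 0.0331 with total-count scaling). Herpud1, which recruits the degradation complex and is a sensitive marker of ER stress, spanned 30.1 to 40.9 CPM in wild types at 22 °C and 25.5 to 40.6 CPM at 6 °C. In knockouts it spanned 35.2 to 57.0 CPM at 22 °C and 18.9 to 39.3 CPM at 6 °C, and the log2 fold changes were -0.09 ± 0.20 and -0.56 ± 0.21 (adjusted p = 0.782 and 0.0630). The knockout fall of Herpud1 passed by DESeq2 (-0.55, adjusted p = 0.0415), with labelled age as a covariate (-0.66, 0.0162) and without knockout replicate 4 at 6 °C (-0.69, 0.0290). Sel1l and Syvn1, the adaptor and the ubiquitin ligase of the main degradation complex, had wild-type log2 fold changes of -0.14 ± 0.09 and 0.11 ± 0.18, and with total-count scaling Sel1l was at -0.34 (adjusted p = 0.0172). Derl1 and Derl2, membrane proteins of the exit channel, had -0.05 ± 0.16 and -0.02 ± 0.11. Derl3 had 6 counts in wild types at 22 °C (95% exact Poisson interval 2.20 to 13.1), 4 in wild types at 6 °C (1.09 to 10.2) and 2 in each knockout group (0.242 to 7.22), intervals that cover counting error only. The translocon subunits Sec61a1 and Sec61b had wild-type log2 fold changes of 0.01 ± 0.12 and -0.18 ± 0.17 and did not pass in either genotype.

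Levels per gene length set the scale of these changes. In wild types at 22 °C, the deposited RPKM were highest for Calr (62.9 ± 9.32, SD, n = 4), then Hsp90b1 (50.7 ± 3.77), Canx (48.0 ± 3.06) and Hspa5 (45.7 ± 4.38). The mice of Hsp90b1, Canx and Hspa5 overlapped in level, while Calr, at 51.6 to 73.5 RPKM, overlapped Hsp90b1 and lay above every value of Canx and Hspa5 in that group. Derl1 (39.3 ± 7.79 RPKM), Pdia3 (31.5 ± 4.02) and Dnajb9 (28.9 ± 4.08) followed. Xbp1 stood at 9.37 ± 1.10 RPKM, Pdia4 at 8.73 ± 1.02 and Edem1 at 8.0 ± 0.562. The 3 genes that fell were thus close to each other in level. Hyou1 (8.44 ± 0.421 RPKM) and Atf6 (7.78 ± 0.875), which rose, lay at about the same level. Ern1 (1.47 ± 0.203 RPKM), Ero1lb (0.751 ± 0.0866), Sdf2l1 (0.551 ± 0.301) and Derl3 (0.0255 ± 0.0334) were the lowest. A pseudogene of Calr is in the annotation (Calr-ps), and how the counting shared reads with it is not known.

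**Figure D3:**
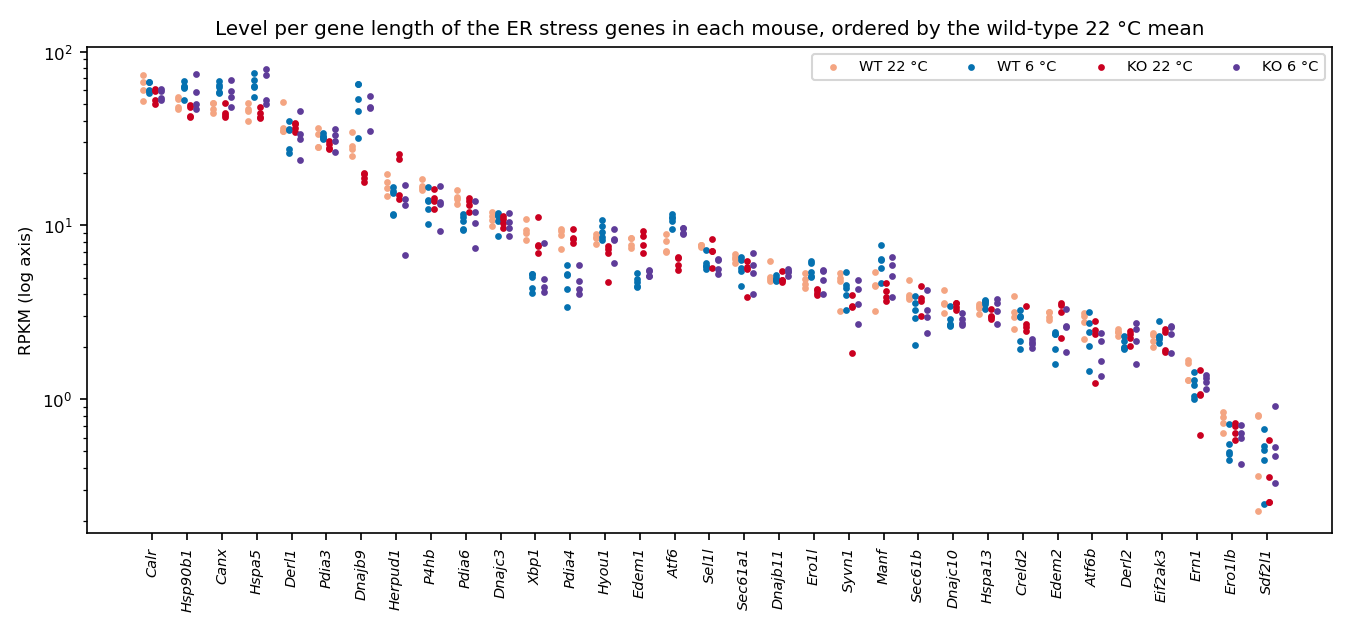
Deposited RPKM on a log axis for the members above 0 in every library, 1 point per mouse and a colour per group, in the order of the mean in wild types at 22 °C. Calr leads at 62.9 RPKM and Sdf2l1 is the lowest shown at 0.551 RPKM, and Dnajb9 spreads most visibly between the temperatures.

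Among the 27 tested members with a promoter entry, those with ERSE and those without can be set side by side. Of the 9 with the letters, 3 rose in wild types (Hspa5, Hsp90b1 and Canx) and 2 in knockouts. None of them fell with TMM on all 17 libraries. Of the 18 without, 2 rose (Dnajb9 and Ero1l) and 3 fell in wild types, and 1 rose and 3 fell in knockouts. Of all tested genes, 14.3% rose and 13.3% fell in wild types, and 11.6% rose and 10% fell in knockouts. The median log2 fold change was 0.18 with the letters and -0.10 without in wild types, and 0.09 and -0.09 in knockouts. The 6 members with no promoter entry held 3 of the wild-type rises (Atf6, Hyou1 and Manf) and 2 of the knockout rises, with medians of 0.32 and 0.28, above those of the members with the letters. With total-count scaling, 2 members with ERSE rose and 2 fell in wild types, since Hsp90b1 lost its call and Pdia6 and Ero1lb fell (log2 fold change -0.47 for both, edgeR adjusted p = 0.0186 and 0.0447). Of those without, 1 rose and 6 fell, and the wild-type medians were -0.03 with the letters and -0.31 without. The wild-type shares of all tested genes with that scaling, given above, were lower for rises and higher for falls than with TMM. Members with ERSE that did not pass in wild types with TMM on all 17 libraries are Dnajc3, Creld2, Calr, Pdia6, Ero1lb and Syvn1. These are counts over members chosen by name, and the difference was not tested.

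No member passed the test between genotypes at either temperature. By edgeR, 0 of 33 were called at 22 °C, where 0.016% of all tested genes were, and 0 of 33 at 6 °C, where 0.04% were (0.00801% higher and 0.032% lower in knockouts). At an unadjusted p under 0.05 there was 1 member at each temperature, and DESeq2 and limma also called 0. At 22 °C that member was Dnajb9, whose knockouts (47.6 to 52.4 CPM) lay below all wild types (55.9 to 80.9 CPM), with a log2 fold change of -0.55 ± 0.21 (adjusted p = 0.998) and a 95% interval from -0.99 to -0.11. It was the only member whose genotypes did not overlap at 22 °C, where 1.93% of all tested genes were lower and 2.29% higher without overlap, and no member's genotypes stood apart at 6 °C, where 0.457% were higher and 0.585% lower. At 6 °C the member was Edem2, at 0.34 ± 0.15 (adjusted p = 0.999). Hspa5 differed by 0.03 at 22 °C (interval -0.37 to 0.43) and by -0.10 at 6 °C (-0.50 to 0.29), so changes of less than about that size could not be seen. Total-count scaling moved the median of all tested genes from -0.0019 to -0.15 at 22 °C and from -0.0013 to -0.016 at 6 °C, with 0 members called.

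The cold response of the knockouts less that of the wild types was called for 0 of 33 members by edgeR, against 0.00801% of all tested genes, with 1 at an unadjusted p under 0.05 and 0 called by DESeq2 and limma. That 1 was Ern1, with a difference of 0.51 ± 0.20 on the log2 scale (unadjusted p = 0.0203, adjusted p = 1). For the genes called in wild types only, the differences were -0.07 for Hsp90b1 (95% interval -0.57 to 0.42), -0.22 for Manf (-0.81 to 0.36) and -0.09 for Ero1l (-0.48 to 0.31). These intervals cover 0 and also differences as large as the wild-type responses, so neither a like response nor an unlike one is shown. For Atf6 and Edem1 the difference was 0.01, with intervals of -0.30 to 0.32 and -0.29 to 0.30. Sex is uneven between the genotypes and entered the model as a covariate.

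Further genes of the pathway were counted in 6 lists, 79 of whose 81 genes were tested. With TMM, 14.3% of all tested genes rose and 13.3% fell in wild types, and 11.6% rose and 10% fell in knockouts. The shares of all tested genes with total-count scaling are those given above. The targets of the PERK branch had the highest medians of the 6: 3 of 9 rose in wild types and 4 of 9 in knockouts, none fell, and the medians were 0.95 and 0.90. With total-count scaling 2 rose in wild types and 3 in knockouts, none fell, and the medians were 0.74 and 0.84. Atf4, the factor whose translation PERK favours, stood at 61.6 to 93.4 CPM in wild types at 22 °C and at 137 to 226 CPM at 6 °C. It rose by 1.36 ± 0.18 in wild types and by 1.72 ± 0.19 in knockouts (edgeR adjusted p = 7.2e-05 and 2.18e-05). Ppp1r15a, the eIF2alpha phosphatase subunit GADD34, rose by 0.95 ± 0.20 and 1.43 ± 0.22 (adjusted p = 0.00275 and 0.000269). Ddit3, which encodes CHOP, stood at 6.54 to 7.50 CPM in wild types at 22 °C and at 5.64 to 12.7 CPM at 6 °C, with log2 fold changes of 0.22 ± 0.20 and 0.03 ± 0.22 (adjusted p = 0.460 and 0.946). Ddit3 was named after its values were seen, as the best known target of the branch.

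In the list of ubiquitin ligases and extraction factors, 6 of 13 rose in wild types (46.2%) and 5 of 13 in knockouts (38.5%), and none fell. Of all tested genes, 14.3% and 11.6% rose. With total-count scaling 3 and 4 rose, Ubxn4 and Nploc4 among them in both genotypes, and none fell. Ubxn4, which brings the ATPase p97 to the ER membrane, rose by 0.97 ± 0.12 and 0.76 ± 0.12 (edgeR adjusted p = 4.1e-05 and 0.000415), and Nploc4, a cofactor of the same ATPase, by 0.79 ± 0.12 and 0.78 ± 0.13. Both act on the cytosolic side, after the steps of Edem1 and Sel1l. The list of other ER folding enzymes went both ways, with 2 of 13 up and 2 down in wild types and 1 up and 2 down in knockouts. The wild-type shares, 15.4% each, were near those of all tested genes (14.3% and 13.3%). With total-count scaling none of the list rose, and Pdia5 and Txndc5 fell in each genotype. Pdia5, a disulfide isomerase reported to act on ATF6, spanned 2.37 to 4.17 CPM in wild types at 22 °C and 0.899 to 1.71 CPM at 6 °C, and fell by 1.26 ± 0.20 on the log2 scale in wild types and by 1.87 ± 0.22 in knockouts (adjusted p = 0.000328 and 5.06e-05). Txndc5, another isomerase, fell by 0.78 ± 0.14 and 0.54 ± 0.15. Calu, a calcium-binding protein, rose by 0.42 ± 0.12 in wild types, and Txndc11, a partner of Edem proteins, by 0.33 ± 0.11 and 0.49 ± 0.12.

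In each of the lists of translocation and of glycosylation genes, 1 gene fell in both genotypes and none rose, out of 17 and 16 tested. They are Tram1, a translocon-associated protein, at -0.32 ± 0.10 and -0.45 ± 0.11 (edgeR adjusted p = 0.0270 and 0.00746), and Uggt2, a glycoprotein folding sensor, at -0.36 ± 0.12 and -0.46 ± 0.12 (0.0269 and 0.0134). Of 11 other transducers and ER membrane regulators, 1 rose and 2 fell in wild types and 1 rose and 1 fell in knockouts. Creb3, a factor cut in the Golgi in the manner of ATF6, rose by 0.54 ± 0.12 and 0.70 ± 0.13. Its relative Creb3l2 fell by 0.70 ± 0.16 and 0.56 ± 0.17. Mbtps1, the site-1 protease that cuts ATF6, fell by 0.26 ± 0.08 in wild types (adjusted p = 0.0263), and its knockout value was -0.23 ± 0.09 (adjusted p = 0.0606). With total-count scaling none of the 11 rose and 4 fell in wild types, so that Creb3 kept its call in knockouts only, and Spcs3 fell beside Tram1 in wild types.

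Cytosolic and mitochondrial heat-shock chaperones were counted beside the ER members, as chaperones outside the ER. Of 18, 16 rose in wild types (88.9%) and 13 in knockouts (72.2%) and none fell, with medians of 1.27 and 1.13. Among all tested genes, 14.3% rose in wild types and 11.6% in knockouts. The inducible Hspa1a and Hspa1b rose by 3.66 ± 0.54 and 3.63 ± 0.62 in wild types, and as near-identical copies their reads may have been shared out or dropped. Hspa8, the constitutive cytosolic Hsp70, rose by 1.56 ± 0.20 and 1.51 ± 0.20 (edgeR adjusted p = 5.25e-05 and 0.000109), and Hsph1, its exchange factor, by 2.19 ± 0.29 and 1.98 ± 0.30 (adjusted p = 7.01e-05 and 0.000230). Hspa8 and Hsph1 were named after their values were seen, as the counterparts of the ER proteins of Hspa5 and Hyou1, whose log2 fold changes were 0.73 and 0.34 in wild types. With total-count scaling, 15 rose in wild types and 13 in knockouts and none fell. Of the mitochondrial chaperones, Hspd1 and Hspe1 rose with that scaling in wild types only, and Hspa9 and Trap1 in neither genotype. The lists were chosen with earlier results of these data known, and the difference between them was not tested.

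**Figure D4:**
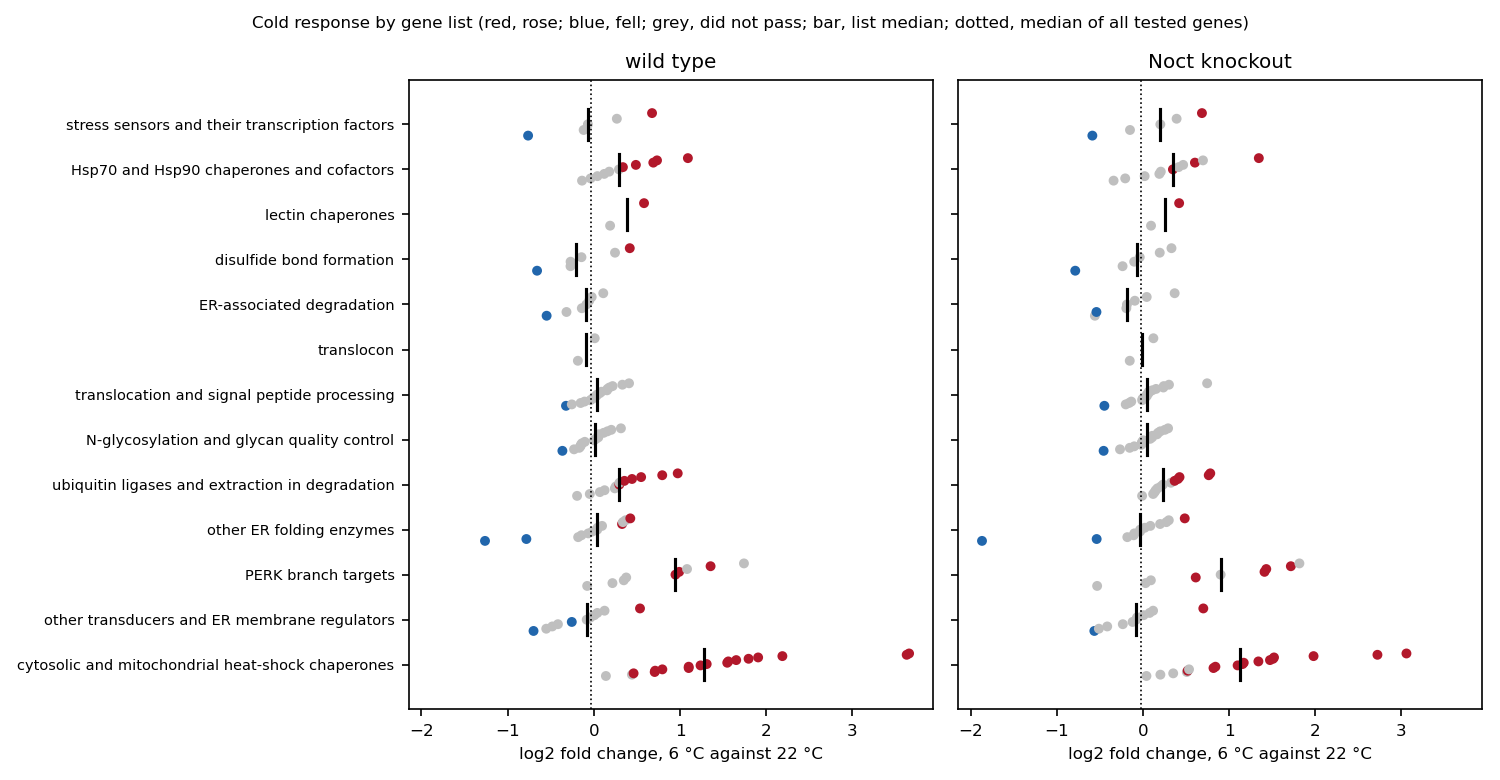
Log2 fold change at 6 °C against 22 °C for each tested gene of each list, in wild types (left) and knockouts (right), with red for genes that rose, blue for genes that fell and grey for those that did not pass, a bar at the list's median and a dotted line at the median of all tested genes. Heat-shock chaperones lie furthest to the right (medians 1.27 and 1.13) and the degradation members lie around 0 (medians -0.09 and -0.19).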

How the data were processed

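The submitters' processing notes name STAR, HTSeq, mm10 and GRCm38.p6, and versions, annotation and strand setting are not given in the sources used here. The authors deposited raw read counts per gene symbol and RPKM, which equal the counts scaled to gene length and total count. Counts were analysed with edgeR 4.0.16 in R 4.3.3: filterByExpr over the 4 groups, TMM, and 1 quasi-likelihood model of the 17 libraries, with group means and labelled sex as terms (12 residual degrees of freedom). P-values were adjusted by Benjamini-Hochberg over 12486 genes. Intervals are at 95%. DESeq2 1.42.0, limma 3.58.1 on log2(RPKM + 1) and log2(RPKM + 0.1), and other scalings, filters, covariates and samples were alternatives. The fit was tested on simulated data. Members and lists were chosen with earlier results of these data known. Values in every library were given for the 5 sensor genes and every called member, and other lists gave up to 2 rises and 2 falls. Replicates are mice, and no 2 libraries of a group were near-identical.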

Additional observations from a re-analysis of the deposited data

Results flagged for a closer look

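A gap test was run on the highest and lowest mouse of each group, over 132 combinations of member and group, and chance alone flags about 5% of such tests. It set apart 11 values, each given here in TMM-scaled CPM. Knockout replicate 4 at 22 °C was above the other 3 mice of its group for Dnajb9 (52.4 against 47.6 to 48.3), Dnajc10 (20.8 against 16.1 to 16.8), Canx (277 against 192 to 200), Pdia3 (112 against 83.0 to 87.5) and Ero1l (20.9 against 17.7 to 18). Knockout replicate 4 at 6 °C was low for Ero1l (17.6 against 24.9 to 25.7). Knockout replicate 3 at 6 °C was high for Creld2 (3.23 against 2.97 to 2.99). Wild-type replicate 1 at 22 °C was high for Dnajb11 (17.6 against 14 to 14.6), P4hb (46.2 against 41.8 to 42.4) and Derl1 (140 against 99.3 to 101). Wild-type replicate 4 at 22 °C was high for Sec61b (5.45 against 4.37 to 4.48).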

How the results depend on the processing

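Atf6, Dnajb9 and Pdia4 kept their calls in both genotypes under all 30 alternatives run for them, and Hspa5, Canx, Xbp1 and Edem1 did so in wild types. In wild types, 8 members rose and 3 fell. Total-count scaling (added after the data were seen) and limma on log2 RPKM with either pseudocount gave 4 and 8. In knockouts, 5 rose and 3 fell. On males alone 2 rose and 1 fell, and on the knockout groups alone 2 rose. Edem1 in knockouts was lost on males alone (adjusted p = 0.103). Leaving out 1 library gave 5 (without wild-type replicate 3 at 22 °C) to 9 rises and 3 to 4 falls in wild types. In knockouts it gave 3 (without replicate 2 or 3 at 6 °C or 3 at 22 °C) to 8 rises (without replicate 4 at 6 °C) and 2 to 4 falls. The cause of these changes was not tested. The genotype and interaction counts stayed at 0 under every alternative. Replicate numbers did not pair the mice (correlations of deviations from -0.42 to 0.44), and with the replicate number as a block 6 members rose and 3 fell in wild types and 2 and 3 in knockouts. No result reversed. DESeq2 gave 6 rises and 4 falls in knockouts. Derl3 had too few counts to test.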
